A study of Temnothorax americanus and Temnothorax ambiguus and Temnothorax curvispinosus with 48 samples.

Results

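Hymenoptaecin, abaecin, peptidoglycan-recognition protein and Protein toll were followed library by library in workers of slavemaking Temnothorax ants and their hosts. The contigs were found by name, as those whose first protein match in the deposited sheets of called contigs contained hymenoptaecin, defensin, abaecin, lysozyme, peptidoglycan, phenoloxidase or protein toll. This gave 16 contigs of the 2140 with a match title, of 4088 contigs in those sheets and of 339894 contigs in the 6 count tables. Of these, 8 matched hymenoptaecin, 2 abaecin, 2 a peptidoglycan-recognition protein precursor and 4 Protein toll, while 0 matched defensin, lysozyme or phenoloxidase. T. americanus held 5 of them, T. duloticus 3, T. pilagens 4 and T. ambiguus 4, and none was found in T. longispinosus or T. curvispinosus. Because only contigs that the study had called between the behavioural states carry a name, these contigs were chosen by the study's tests of count differences between the states, and their levels in the states are given here as a description. Counts of calls made in refitting the same libraries are printed beside the share of all contigs, and nothing is read from them. A gene with no called contig has no name in these sheets, so a missing name says nothing of its level.

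Hymenoptaecin and abaecin are small antimicrobial peptides of bees, wasps and ants that are secreted into the blood, mainly by the fat body, and act on bacteria. Peptidoglycan-recognition proteins bind a component of the bacterial cell wall and, as worked out in Drosophila, can switch on the Toll or Imd signalling pathways. Toll is a membrane receptor, also known from Drosophila, whose pathway ends in factors that turn on genes of antimicrobial peptides, and it has a further role in early development.

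Whole bodies were sequenced from raiding and non-raiding workers of 3 slavemaking species (T. pilagens, T. duloticus, T. americanus), and from defending workers and workers taken before a raid of the hosts T. longispinosus, T. curvispinosus and T. ambiguus. Each library pooled 6 workers, 2 from each of 3 colonies, and there were 4 libraries per species and state, 48 in all. Raiding slavemakers were caught in fights outside the host nest. Non-raiding slavemakers were taken after the raiding season, in autumn, from colonies brought back to the summer temperature, and ovaries were dissected to keep only infertile slavemakers in both states, so season and state cannot be told apart. Defending hosts were caught fighting near their nest, whereas hosts taken before a raid were foragers from the first day of the trials, so task and state cannot be told apart. In whole-body pools, fewer cells of a type and less RNA per cell also cannot be told apart. The pools were drawn from the same colonies in both states, but no label ties a pool to its colonies.

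Libraries are named by their titles, with DR for during a raid and BR for before a raid or outside the season. The study removed 6 libraries as outlying, among them raiding libraries DR_439 of T. americanus and DR_687 of T. pilagens, and values below rest on the 42 kept libraries unless these are named. In the 4 species with immune contigs, the 30 kept libraries held 6473400 to 49129121 counts. Levels are given as counts per 1000000 counts of the library (CPM), with library sizes scaled by edgeR's TMM method, and are compared between libraries of a species and not between contigs, whose lengths were not used. Letters in contig names of the slavemakers (smadr for libraries labelled as non-raiding, smifors for those labelled as raiding) can be read as the opposite state, and no source explains them, whereas the letters in host contig names match the labels. In the T. duloticus count table all 8 columns are headed BR, also the 4 that by library number are DR_421 to DR_424, labelled as raiding, so for the raiding state of T. duloticus the table's own heading goes against the labels. States here follow the labels, and exchanging them in a slavemaker would turn the sign of its differences. The study's own text gives hymenoptaecin as higher in raiding T. duloticus and lower in raiding T. pilagens and T. americanus. Those are the signs given by the labels.

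In raiding T. americanus, hymenoptaecin was at most 17.8 CPM in any kept library, while among non-raiding workers it reached 1430.6 CPM in a single library. Contig rep_c10260, whose match to hymenoptaecin of the fire ant Solenopsis invicta covered 393 codons, had 17.8, 0.82 and 0.284 CPM in the raiding libraries DR_437, DR_438 and DR_440, against 192, 1430.6, 36.1 and 1.19 CPM in the non-raiding libraries BR_433, BR_434, BR_435 and BR_436. The groups overlapped, since raiding DR_437 lay above non-raiding BR_436. The non-raiding libraries differed by up to 1201 times among themselves, and BR_434 alone held 85.2% of the summed CPM of the 7 kept libraries. The shorter contig_59179 had a match of 39 codons, also titled hymenoptaecin from the fire ant. It had 1.24 and 0.113 CPM in DR_437 and DR_440 and no count in DR_438, where a count of 0 allows up to 0.164 CPM. In BR_433 to BR_436 it had 16.6, 137, 2.68 and 0.298 CPM. It placed the non-raiding libraries in the same order. Fitted log2 fold changes, raiding over non-raiding, were −5.99 (SE 2.30) for rep_c10260 and −6.20 (SE 2.04) for contig_59179. Without non-raiding BR_434 they were −3.55 and −3.73, and without raiding DR_437 they were −9.53 and −9.30.

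In T. duloticus, with states taken from the labels and not from the column headings, the difference had the other sign, with hymenoptaecin higher in 3 of the 4 libraries labelled as raiding. Contig rep_c41030 had 0.841, 14.9, 340 and 27.0 CPM in the raiding libraries DR_421, DR_422, DR_423 and DR_424, against 2.87, 1.87, 1.97 and 1.30 CPM in the non-raiding libraries BR_417 to BR_420. Contig c30406 had 1.26, 23.6, 467 and 50.9 CPM in raiding workers, against 3.81, 3.50, 2.26 and 1.86 CPM in non-raiding workers. DR_421 lay below every non-raiding library for these contigs, so the groups overlapped. Contig rep_c23850 had 2.48, 17.5, 414.5 and 36.6 CPM in raiding workers, against 1.88, 1.20, 2.83 and 1.03 CPM in non-raiding workers. All 3 contigs placed the raiding libraries in the order DR_423, DR_424, DR_422 and DR_421, and DR_423 held 84.3% to 87.0% of their summed CPM. The non-raiding libraries stayed within 2.05 to 2.74 times of each other, whereas the raiding libraries differed by 167 to 404 times. Fitted log2 fold changes were 5.60 (SE 1.53), 5.59 (SE 1.48) and 6.06 (SE 1.49) for rep_c41030, c30406 and rep_c23850. Without DR_423 they were 2.84, 3.15 and 3.43.

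All 3 T. duloticus contigs had a match titled hymenoptaecin from the fire ant. The counts of rep_c41030 were 0.53 to 0.873 times those of c30406 in all 8 libraries, a narrow range beside the 404 times by which the level of rep_c41030 differed between raiding libraries. Ratios to rep_c23850 were wider, at 0.338 to 1.56 for rep_c41030 and 0.508 to 2.91 for c30406. Contigs of this kind can be parts or close copies of the same gene and share its reads, so they are not counted here as separate genes. Over the 4 species, the match began within the first 3 bases of the contig in 7 of the 8 hymenoptaecin contigs, and it covered 39 to 393 codons.

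In T. pilagens, the only hymenoptaecin contig, c20570, was split among non-raiding libraries. It had 2.2, 4.95 and 0.954 CPM in the raiding libraries DR_684, DR_685 and DR_686, against 2.60, 37.9, 28.6 and 2.24 CPM in the non-raiding libraries BR_680 to BR_683. BR_681 and BR_682 were high, while BR_680 and BR_683 lay within the range of the raiding libraries. The fitted log2 fold change was −2.71 (SE 1.11).

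In the host T. ambiguus, 1 hymenoptaecin contig lay below every library taken before a raid in all 4 defending libraries, and the other in 2 of 4. Contig rep_c18505 had 8.20, 2.03, 23.7 and 21.9 CPM in the defending libraries DR_692 to DR_695, against 434.5, 80.6, 330 and 18.1 CPM before a raid in BR_688 to BR_691. DR_694 and DR_695 lay above BR_691, which was the only library taken before a raid to lie within the defending range. Contig c24640, whose match of 39 codons was also titled hymenoptaecin from the fire ant, had 5.19, 3.73, 21.6 and 12 CPM in defending workers. Before a raid it had 316, 47.3, 185 and 23.7 CPM, and its groups did not overlap. The fitted log2 fold changes, defending over before raid, were −3.95 (SE 1.04) and −3.76 (SE 0.90).

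**Figure D1:**
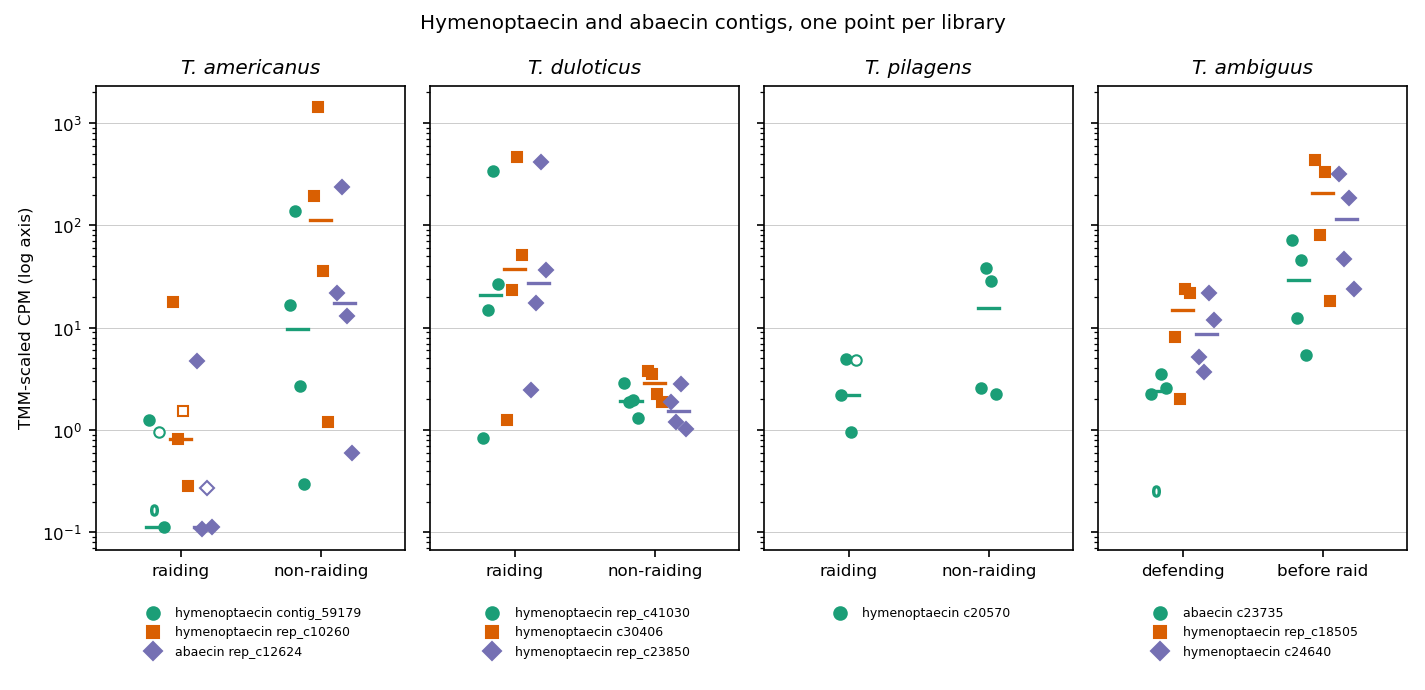
Level of each hymenoptaecin and abaecin contig in every library of 4 species, as TMM-scaled CPM on a log axis. Filled symbols are kept libraries, open symbols the removed libraries, bars the medians of kept libraries, and a symbol 0 stands at the CPM that a count of 0 allows; 1 library stands far above the others of its state in non-raiding T. americanus (BR_434, 1430.6 CPM for rep_c10260) and in raiding T. duloticus (DR_423, 467 CPM for c30406).

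Abaecin, a peptide rich in proline, was found in T. americanus and T. ambiguus and followed hymenoptaecin across libraries. In T. americanus, contig rep_c12624 had 4.73, 0.109 and 0.113 CPM in raiding DR_437, DR_438 and DR_440, against 21.9, 239, 13.1 and 0.595 CPM in non-raiding BR_433 to BR_436. Its non-raiding libraries stood in the order BR_434, BR_433, BR_435 and BR_436, as those of both hymenoptaecin contigs did. In T. ambiguus, contig c23735 had 2.26, 3.54 and 2.58 CPM in defending DR_692, DR_694 and DR_695 and no count in DR_693, where a count of 0 allows up to 0.254 CPM, against 71.1, 12.5, 46.1 and 5.44 CPM before a raid in BR_688 to BR_691. These groups did not overlap, and all 4 libraries of each state stood in the order given by both hymenoptaecin contigs. The log2 fold changes were −5.24 (SE 1.94) in T. americanus, or −2.79 without BR_434 and −9.19 without DR_437, and −4.02 (SE 1.01) in T. ambiguus.

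The contigs named for peptidoglycan-recognition protein, which matched 175 codons of proteins of Myrmica ants in both species, were also lower in raiding T. americanus and defending T. ambiguus. Contig rep_c26530 had 33.6, 27.6 and 31.9 CPM in raiding T. americanus, against 241, 368, 139 and 91.8 CPM in non-raiding workers, and the groups did not overlap. Its non-raiding libraries had the same order as those of the antimicrobial peptides, but the highest was only 4.01 times the lowest. In T. ambiguus, contig c18101 had 47.3, 28.8, 31.9 and 76.1 CPM in DR_692 to DR_695, against 162, 68.1, 205 and 110 CPM in BR_688 to BR_691. Here defending DR_695 lay above BR_689, so the groups overlapped, and BR_690, not BR_688, was the highest library. The log2 fold changes were −2.75 (SE 0.46) in T. americanus and −1.56 (SE 0.40) in T. ambiguus.

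The 4 contigs named for the receptor Toll had matches titled Protein toll from the leafcutter ant Acromyrmex echinatior. Whether the title stood for the same protein each time was not examined. All 4 were lower in raiding workers with no overlap between the states. In T. americanus, rep_c16133 had 62.8, 61.4 and 54.9 CPM in raiding workers, against 115, 85.8, 91.7 and 96.3 CPM in non-raiding workers. In T. pilagens, rep_c9871 had 31.8, 35.7 and 35.7 CPM in raiding workers, against 58.9, 68.7, 75.3 and 61.0 CPM in non-raiding workers. Both matches covered 1020 codons, and BR_434, the library with the most hymenoptaecin, had the lowest Toll level among non-raiding T. americanus. The other T. pilagens contigs matched 701 codons (rep_c16794) and 1041 codons (rep_c10209). In rep_c16794 raiding workers had 6.19, 10.6 and 6.0 CPM, against 13.2, 25.6, 35.3 and 24.0 CPM in non-raiding workers. In rep_c10209 raiding workers had 7.58, 6.12 and 3.95 CPM, against 14.6, 22.3, 26.8 and 13.2 CPM in non-raiding workers. BR_682 was the highest library for every T. pilagens Toll contig. The log2 fold changes were −0.70 (SE 0.12) for rep_c16133, −0.94 (SE 0.10) for rep_c9871, −1.69 (SE 0.35) for rep_c16794 and −1.70 (SE 0.32) for rep_c10209.

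**Figure D2:**
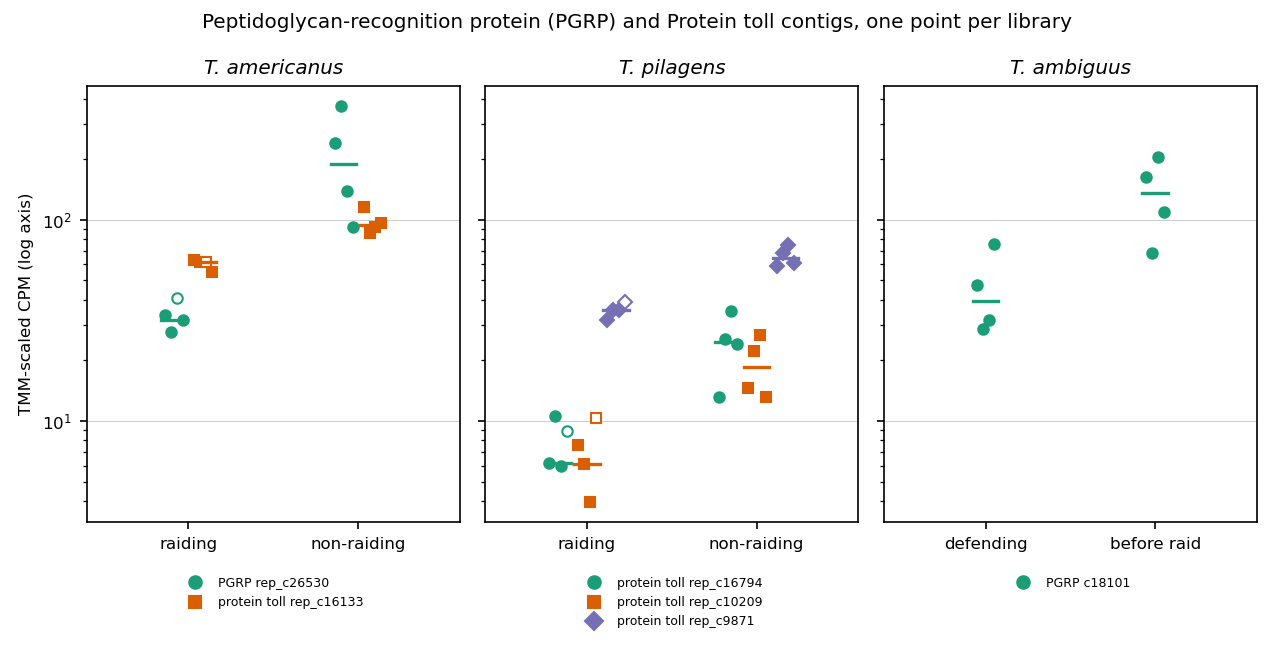
Level of each contig named for peptidoglycan-recognition protein (PGRP) or Protein toll in every library of 3 species, as TMM-scaled CPM on a log axis. Filled symbols are kept libraries, open symbols the removed libraries and bars the medians of kept libraries; in T. americanus the raiding libraries of PGRP lie at 27.6 to 33.6 CPM, below the 91.8 to 368 CPM of the non-raiding libraries.

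Libraries of the same state differed far more in antimicrobial peptides than in most contigs. This is a description, since the study's calls on these libraries chose the immune contigs, and several can be parts of the same gene. The SD of log2(CPM + 0.5) between libraries of a state, pooled over both states, was 1.43 to 3.54 for the 10 hymenoptaecin and abaecin contigs, and 98.64% to 99.98% of all contigs tested in the same species had a smaller one. For the 6 contigs of peptidoglycan-recognition protein and Toll it was 0.14 to 0.685, with 11.51% to 79.13% of contigs below them. The median over all tested contigs was 0.42 in T. americanus, 0.35 in T. duloticus, 0.39 in T. pilagens and 0.42 in T. ambiguus. The least variable were rep_c9871 (0.14) and rep_c16133 (0.16), the Toll contigs with the 1020-codon matches. Within a state, the highest library was 2.05 to 1201 times the lowest for antimicrobial peptides without a count of 0, and 1.12 to 4.01 times for recognition protein and Toll.

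**Figure D3:**
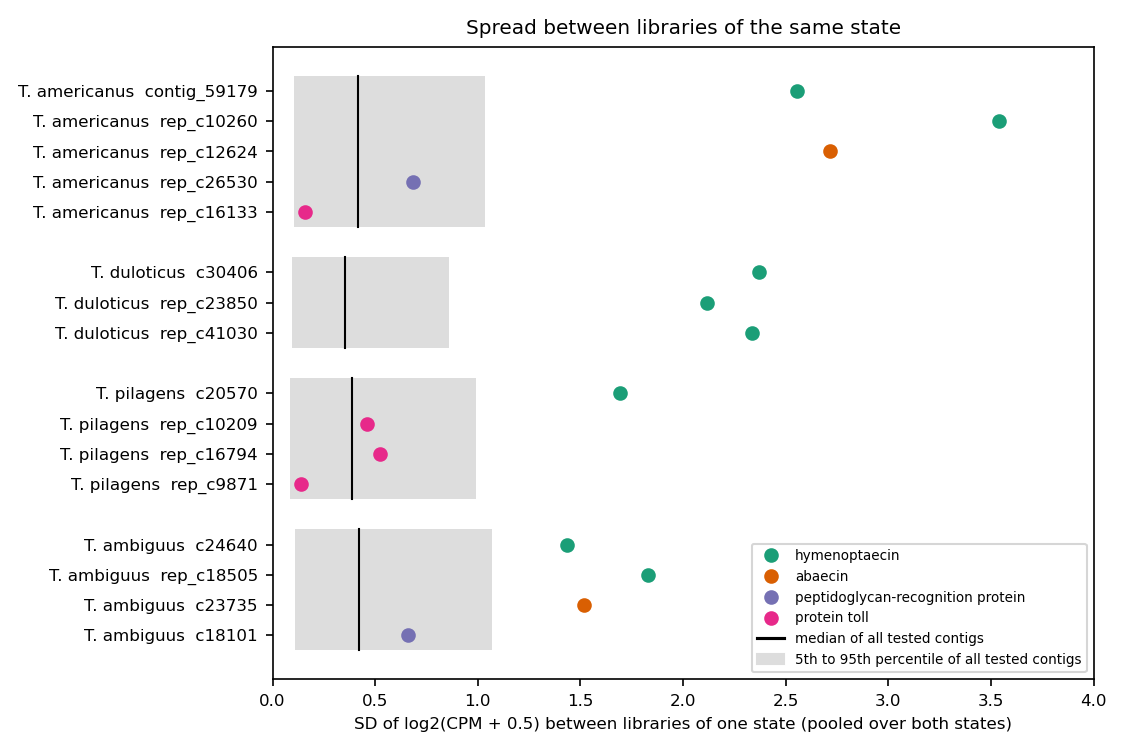
Spread of each immune contig between libraries of the same state, as the SD of log2(CPM + 0.5) pooled over both states, with species from top to bottom. The study's calls on these libraries chose the immune contigs, whereas the band holds all tested contigs. The black line is the median and the grey band the 5th to 95th percentile of all tested contigs of the species; every hymenoptaecin and abaecin contig lies to the right of the band (1.43 to 3.54), and every recognition protein and Toll contig inside it (0.14 to 0.685).

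All 16 contigs passed edgeR's filter on low counts and entered the fits. Raiding or defending libraries were lower for 13 contigs and higher for the 3 of T. duloticus. By edgeR's quasi-likelihood test with Benjamini-Hochberg adjustment, 1 of 5 immune contigs was called lower in T. americanus (rep_c26530) and 3 of 4 in T. pilagens (the Toll contigs), beside 0.384% and 1.94% of all tested contigs called lower in these species. In T. duloticus 0 of 3 were called higher, beside 0.0793% of all tested contigs. In T. ambiguus 0 of 4 were called, beside 0.0% of all tested contigs. At an unadjusted p under 0.05, 3 of 3 in T. duloticus would pass as higher, beside 5.72% of all tested contigs, and 4 of 4 in T. ambiguus, beside 8.05% in either direction. The likelihood ratio test of edgeR called 3 of 3 higher in T. duloticus, beside 0.69% of all tested contigs, and 4 of 4 in T. ambiguus, beside 0.9%. DESeq2 called 3 of 3, beside 1.95%, and 3 of 4, beside 1.41%. The groups did not overlap for 2 contigs in T. americanus, 3 in T. pilagens and 2 in T. ambiguus, beside 6.47%, 8.93% and 2.54% of all tested contigs that lay lower without overlap, and for 0 in T. duloticus, beside 4.03% that lay higher. The study's own calls on these contrasts chose the contigs, so nothing is read from these counts. Their median log2 fold change was −5.24 in T. americanus, 5.60 in T. duloticus, −1.69 in T. pilagens and −3.86 in T. ambiguus, with medians of 0.0036, 0.0052, 0.019 and −0.0082 over all tested contigs. Whether T. duloticus differed from the other species was not tested, since each species has a table and an assembly of its own.

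**Figure D4:**
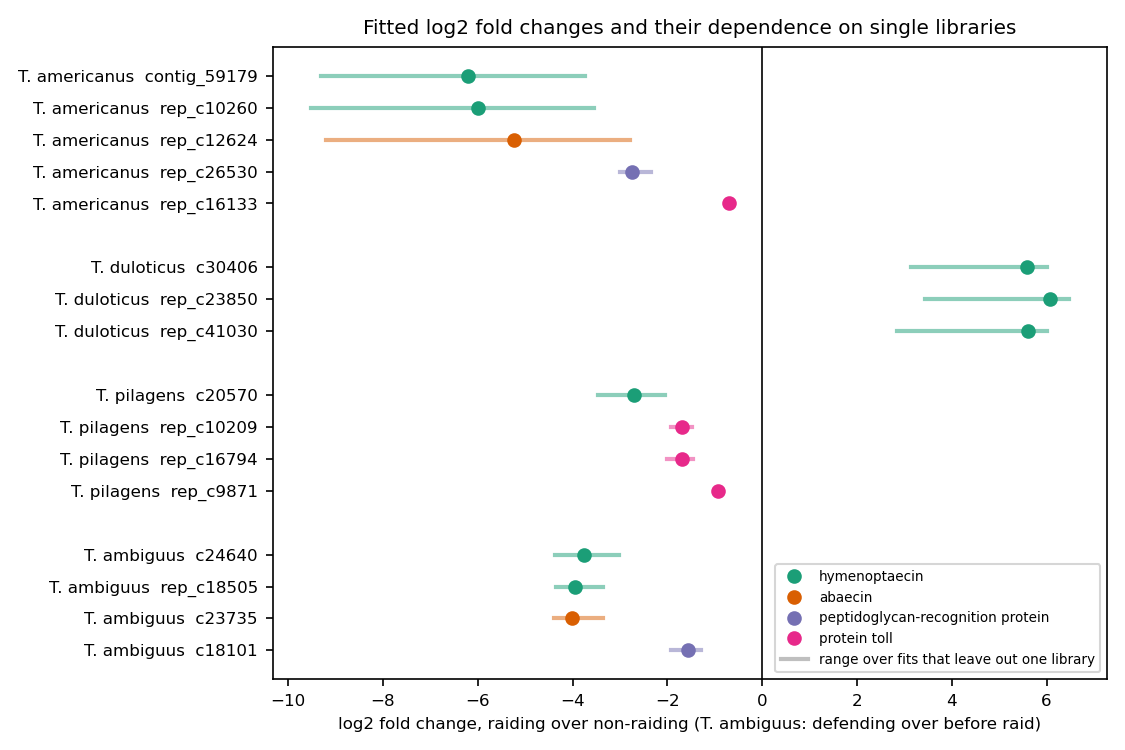
Fitted log2 fold change of each immune contig (points), raiding over non-raiding or, in T. ambiguus, defending over before raid, and its range over fits that leave out 1 library (lines). No line crosses 0, and the lines are longest for the antimicrobial peptides of T. americanus, from −9.53 to −3.55 in rep_c10260. Since the study's calls on these libraries chose the contigs, nothing is read from the kept signs.

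In the 7 fits of each species that left out 1 library, the log2 fold change of rep_c26530 stayed between −3.00 and −2.34, that of rep_c16794 between −2.01 and −1.46, that of rep_c10209 between −1.93 and −1.49 and that of rep_c9871 between −0.99 and −0.87. Calls over all contigs went down in these fits, to 22 to 212 in T. americanus (325 with every kept library) and to 248 to 823 in T. pilagens (1105 with every kept library). The immune contigs called were rep_c26530 without BR_434 or BR_436, rep_c16794 without BR_680, rep_c10209 without BR_683 and rep_c9871 in all 7.

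The removed raiding libraries DR_439 and DR_687 took no part in the study's calls and so give values that did not choose the contigs, although each is a single library and the ranges of the kept libraries beside it did choose them. In DR_439, rep_c26530 had 40.6 CPM and rep_c16133 61.4 CPM, below the 91.8 and 85.8 CPM of the lowest non-raiding libraries. In DR_687, the Toll contigs rep_c16794, rep_c10209 and rep_c9871 had 8.91, 10.4 and 38.9 CPM, below the lowest non-raiding values of 13.2, 13.2 and 58.9 CPM. Compared with the kept raiding libraries, rep_c26530 lay above their 27.6 to 33.6 CPM, rep_c10209 above their 3.95 to 7.58 CPM and rep_c9871 above their 31.8 to 35.7 CPM, towards the non-raiding state, while rep_c16133 and rep_c16794 lay within their ranges. Of the antimicrobial peptides, rep_c10260 had 1.54 CPM and contig_59179 had 0.964 CPM in DR_439, and c20570 had 4.82 CPM in DR_687, all inside the range of non-raiding libraries. Abaecin rep_c12624 had 0.271 CPM in DR_439, under the 0.595 CPM of the lowest non-raiding library.

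Among contigs with a protein name and a mean of at least 5 CPM, those most like the hymenoptaecin contig with the most counts were found by Pearson's r of log2(CPM + 0.5) after taking out each state's mean, as a description over 7 or 8 libraries that share their depth and pooling. In T. americanus these were abaecin rep_c12624 (r = 0.99), the other hymenoptaecin contig (r = 0.95) and, of 232 contigs compared, aromatic-L-amino-acid decarboxylase (r = 0.92), an enzyme that makes dopamine and serotonin and whose products also serve in hardening the cuticle. The decarboxylase had 12.8 to 23.9 CPM in raiding workers, against 26.5 to 85.1 CPM in non-raiding workers. In T. duloticus both other hymenoptaecin contigs came first (r = 0.995 and 0.97), followed, of 198, by a fatty acid-binding protein (r = 0.87), an intracellular lipid carrier with 124 to 194 CPM in raiding workers, against 64.5 to 82.5 CPM in non-raiding workers. In T. ambiguus abaecin (r = 0.97) and the other hymenoptaecin contig (r = 0.95) came before a facilitated glucose transporter of solute carrier family 2 (r = 0.81, of 106). In T. pilagens, with no other antimicrobial peptide among the 490 contigs compared, a sodium-dependent multivitamin transporter (r = 0.98), 4-nitrophenylphosphatase (r = 0.96) and a proteasome maturation protein (r = 0.95) were nearest.

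Other immune names among the called contigs were counted by a wider list of pattern-recognition proteins, Toll-cascade proteases, protease inhibitors and related genes, which holds the same choice by state. It gave 15 contigs, 14 of them tested, of which 2 were called, both lower (1 in T. duloticus and 1 in T. pilagens), beside 0.363% and 2.88% of all tested contigs called in either direction in these species, 0.805% in T. americanus and 0.0% in T. ambiguus. Beta-1,3-glucan-binding protein, which recognises fungal and bacterial surface sugars, averaged 17.4 ± 3.38 CPM (SD, n = 3) in raiding T. americanus and 58.8 ± 31.4 CPM (SD, n = 4) in non-raiding workers. In T. ambiguus it averaged 17.3 ± 4.53 CPM in defending workers and 47.4 ± 7.42 CPM before a raid (SD, n = 4 each). Neither pair of groups overlapped, and the log2 fold changes were −1.76 (SE 0.38) and −1.45 (SE 0.21). BR_434 was again the highest library in T. americanus.

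Serine protease easter cuts the ligand of Toll in Drosophila, where Toll also serves early development. Its name alone therefore does not place easter in immunity. Easter had contigs in 3 species with both signs. It averaged 87.9 ± 13.9 CPM (SD, n = 3) in raiding T. americanus and 162 ± 36.7 CPM (SD, n = 4) in non-raiding workers, and in T. ambiguus 31.5 ± 7.78 CPM in defending workers and 56.3 ± 7.35 CPM before a raid (SD, n = 4 each). In T. pilagens contig rep_c13091 averaged 13.4 ± 2.09 CPM (SD, n = 3) in raiding workers and 27.9 ± 4.18 CPM (SD, n = 4) in non-raiding workers, 1 of the 2 contigs called lower. The other T. pilagens easter contig, rep_c15237, was higher in raiding workers, with 19.6 ± 6.52 CPM (SD, n = 3) against 7.51 ± 3.84 CPM (SD, n = 4) in non-raiding workers. Persephone and snake, also named as serine proteases, had log2 fold changes of −0.91 (SE 0.31) and −0.72 (SE 0.17) in T. pilagens.

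Transferrin, an iron-binding protein of insect blood, had 838 to 2973.4 CPM in raiding T. duloticus, against 291 to 945 CPM in non-raiding workers, a log2 fold change of 1.85 (SE 0.47), and its highest library was DR_423. In T. pilagens it had 341 to 821 CPM in raiding workers, against 135.7 to 420.7 CPM in non-raiding workers, where hymenoptaecin differed in the other direction. Scavenger receptor class B member 1 was lower in raiding workers of T. americanus, with a log2 fold change of −1.45 (SE 0.29), and of T. duloticus, with −3.82 (SE 0.56), the other contig called lower. In T. ambiguus serpin B10, a protease inhibitor, and argonaute-3-like, of the small RNA pathways, had log2 fold changes of −0.80 (SE 0.18) and −1.73 (SE 0.45), while the inhibitor dipetalogastin failed the filter with 0 to 13.7 CPM in defending workers and 0.0625 to 0.322 CPM before a raid.

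Names of other tissues and of microbes were read in the same sheets, and their part in the results above was not tested. These contigs too were chosen by the study's calls, so nothing is read from how many were called. Of all tested contigs, 0.805% were called in either direction in T. americanus, 0.363% in T. duloticus, 2.88% in T. pilagens and 0.0% in T. ambiguus. Fat body names were vitellogenin, hexamerin, apolipophorin and larval serum protein. The vitellogenin receptor, which the study calls in T. duloticus, T. pilagens and T. ambiguus, was not counted among them. Fat body names had 0 contigs in T. americanus. In T. duloticus their 2 contigs differed in opposite directions and neither was called. Vitellogenin-6, a yolk protein precursor, averaged 516.2 ± 67.7 CPM in raiding workers and 270.6 ± 85.5 CPM in non-raiding workers (SD, n = 4 each), the same sign as hymenoptaecin, and Vitellogenin-3 averaged 1369.2 ± 832.3 CPM in raiding workers and 7203.0 ± 4878.1 CPM in non-raiding workers (SD, n = 4 each). In T. ambiguus their 2 contigs summed to 2039.9 to 11848.4 CPM in defending workers, against 62.7 to 2200.9 CPM before a raid, and the single T. pilagens contig had 196 to 545 CPM in raiding workers, against 25.2 to 221 CPM in non-raiding workers. In T. ambiguus and T. pilagens, hymenoptaecin differed in the other direction. Blood cell names had 0 contigs in all 4 species. Gut names (trypsin, chymotrypsin, aminopeptidase, maltase and peritrophin) also took in sugar-cutting maltases and inhibitors of trypsin or chymotrypsin, so the sums are not of proteases alone. The word aminopeptidase also took in dipeptidyl aminopeptidase-like protein 6 in T. duloticus, higher in raiding workers and not called. In T. pilagens it took in puromycin-sensitive aminopeptidase, called lower. Whether these contigs come from the gut was not examined. Gut names summed to 1962.7 to 2143.4 CPM in raiding T. pilagens, against 3238.3 to 4399.9 CPM in non-raiding workers. Of their 19 contigs there, 12 were tested, 10 were lower and 9 were called, all lower, among them 2 maltases. Maltase 2 alone averaged 468.4 ± 19.4 CPM (SD, n = 3) in raiding workers and 1134.9 ± 126.8 CPM (SD, n = 4) in non-raiding workers. In T. americanus 3 of the 4 tested contigs of 8 were lower, and the 1 called, an aminopeptidase N, averaged 33.5 ± 5.16 CPM (SD, n = 3) in raiding workers and 95.2 ± 18.1 CPM (SD, n = 4) in non-raiding workers. Their sum was 119 to 767 CPM in raiding T. americanus, against 109 to 205 CPM in non-raiding workers, and its highest value came from a chymotrypsin-1 contig that was not called and had 728 CPM in DR_440. In T. duloticus the 6 contigs summed to 142 to 217 CPM in raiding workers, against 226 to 587 CPM in non-raiding workers, with 4 lower and 2 called, both trypsin-7 and lower. In T. ambiguus the 7 contigs summed to 146 to 1520.7 CPM in defending workers, against 20.3 to 65.5 CPM before a raid, with 3 of 4 tested contigs higher and 0 called. Muscle names summed to 629 to 663 CPM in raiding T. americanus, against 307 to 383 CPM in non-raiding workers (2 titin contigs, both called higher). In T. duloticus they summed to 17.9 to 170 CPM against 213 to 369 CPM (1 contig, not called). In T. pilagens they summed to 910.8 to 1132.2 CPM against 681.9 to 945.7 CPM. Of the 6 contigs there, 4 titin contigs were called higher, and troponin C was lower and not called. The single T. ambiguus contig had no count in defending workers and only 0.733 to 1.09 CPM before a raid, and it failed the filter. Nervous system names had 1 contig each in T. americanus and T. pilagens and 0 in the others. Both were titled neuropeptide capa receptor and were found by the word neuropeptide. The tissue that expressed this receptor was not examined, so neither contig is read as a marker of nerve cells. They had 4.29 to 7.04 CPM and 10.1 to 14.0 CPM in raiding workers, against 9.96 to 19.1 CPM and 16.7 to 26.3 CPM in non-raiding workers.

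Among contigs matched to bacteria, the only one in T. duloticus, named for a Wolbachia strain, had 2.1 CPM in DR_423 (60 counts) and 0.342 CPM in DR_422 (10 counts), and 0 counts in each of the other 6 libraries, so its highest library was also that of hymenoptaecin. In T. americanus the 3 contigs matched to Pseudoalteromonas were highest in 3 different non-raiding libraries, at 39.7 CPM in BR_433, 56.9 CPM in BR_435 and 46.1 CPM in BR_436, and not in BR_434. In T. pilagens the 2 contigs matched to Wolbachia were highest in raiding DR_684 (4.76 CPM) and in non-raiding BR_681 (0.717 CPM).

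More microbial names were looked for after the values were seen. In T. americanus a contig matched to Burkholderia was highest in BR_434 (10.2 CPM, and at most 0.893 CPM in any other library), whereas 2 matched to Aspergillus were highest in BR_435 (9.18 and 5.61 CPM), with 1 and 0 counts in BR_434. In T. pilagens a contig matched to Burkholderia was highest in raiding DR_686 (39.6 CPM), the kept library with the least hymenoptaecin, and 1 matched to Caldalkalibacillus was highest in non-raiding BR_681 (1.02 CPM), the library with the most. In T. duloticus the 4 contigs matched to fungi were highest in non-raiding BR_419 (12.8, 6.45 and 2.48 CPM) or BR_417 (3.2 CPM), with at most 8 counts in DR_423.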

How the data were processed

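RNA from pools of whole workers was sequenced by the authors, trimmed with Trimmomatic after FastQC, and aligned to 1 de novo assembly per species with TopHat2 2.0.13 and Bowtie, as the submitters' processing notes name them, and counted with eXpress. The deposited tables hold whole-number counts per contig, not normalized. The authors' sheets of called contigs also hold their own fold changes, averages, p-values and likelihood ratios, which were not used, and the match titles, which were. Further blocks of the count tables hold 80 more per-sample columns and the sheets 42, all left unused. Groups follow the labels, with T. duloticus columns matched by library number.

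Each species was tested alone, raiding over non-raiding or defending over before raid, on the libraries the study kept, with glmQLFit and glmQLFTest of edgeR 4.0.16 (R 4.3.3, limma 3.58.1) after TMM scaling. Contigs were first filtered by filterByExpr, its minimum count set to 10, and p-values were adjusted by Benjamini-Hochberg, with calls at 0.05. The study also used edgeR within each species. Its sheets hold likelihood ratios, so its calls and those of the quasi-likelihood test here need not rest on the same test. The SE of a log2 fold change is its size over the root of the F statistic. CPM used TMM-scaled totals of 8 libraries per species. Log2 CPM had 0.5 added. Scripts were tested on counts simulated at edgeR's common coefficient of variation, 0.44 to 0.49 in the 4 species with immune contigs. That of the hymenoptaecin and abaecin contigs was 0.756 to 1.47, so the simulation did not cover contigs as variable as these. Labels do not say that replicates are separate colonies, so p-values measure only the spread between these pools.

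Every contig with one of the member names was named, then the wider immune list, and by likeness the 3 contigs nearest to the hymenoptaecin contig with the most counts in each species (mean of at least 5 CPM). Members and lists were chosen with earlier results of these data known. Limits of a count of 0 use 3 counts and cover counting error only. Alternatives were DESeq2 1.42.0, edgeR's likelihood ratio test (filtered or unfiltered), leaving the filter out, scaling by RLE, adding back the removed libraries, CPM on library totals and leaving out each library in turn. Tables and figures were made with Python 3.11.15 (NumPy 2.4.6, pandas 2.3.3, matplotlib 3.10.9).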

Additional observations from a re-analysis of the deposited data

Results flagged for a closer look

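In groups of 4 kept libraries, 6 of 23 contig levels had a library whose gap to the nearest other library exceeded Dixon's 95% critical share of the group's range. Chance gives about 1 in 20 where values are normally distributed, whereas these CPM span up to 1201 times within a state, and on the scale of log2(CPM + 0.5) 0 of 23 did, with gaps of 0.298 to 0.489 of the range for the same 6. The 6 are not independent, since they come from 2 libraries and from contigs of the same or related genes. In non-raiding T. americanus BR_434 stood apart at 1430.6 CPM for hymenoptaecin rep_c10260 (gap 0.867 of the range), 137 CPM for hymenoptaecin contig_59179 (0.881) and 239 CPM for abaecin rep_c12624 (0.911). In raiding T. duloticus DR_423 stood apart at 340 CPM for rep_c41030 (0.923), 467 CPM for c30406 (0.894) and 414.5 CPM for rep_c23850 (0.917), all hymenoptaecin. Groups of 3 libraries were not examined in this way.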

How the results depend on the processing

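All 16 immune contigs kept their direction in every fit without 1 library and under the other settings, and the 32 mean CPM moved by less than 1 SD on library totals. The study's calls on the same libraries chose these contigs, so the kept directions are not read as a check on them. The number of immune contigs called depended on the test in T. americanus, T. duloticus and T. ambiguus. Calls over all tested contigs, which also moved, are given beside it. In T. americanus 1 was called, beside 325 of 40389. The likelihood ratio test called 2, beside 1106 of 40389 with the filter and 1115 of 53695 without. DESeq2 called 4, beside 1841 of 40389. With all 8 libraries 2 were called, beside 907 of 38309, and without the filter 0, beside 266 of 53695. In T. duloticus 0 were called, beside 151 of 41591. The likelihood ratio test called 3, beside 936 of 41591 with the filter and 905 of 57813 without, and DESeq2 3, beside 1951 of 41591. In T. ambiguus 0 were called, beside 0 of 33331. The likelihood ratio test called 4, beside 300 of 33331 with the filter and 347 of 43597 without, and DESeq2 3, beside 470 of 33331. In T. pilagens 3 were called by each test, beside 1105, 2054 and 2840 of 38402 for quasi-likelihood, likelihood ratio and DESeq2. Without the filter the quasi-likelihood test called 2 there, beside 951 of 48384. Nothing is read from these counts.

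Over all contigs, the likelihood ratio test, the same without the filter and DESeq2 called 1106, 1115 and 1841 in T. americanus, 936, 905 and 1951 in T. duloticus, 2054, 1917 and 2840 in T. pilagens, 83, 177 and 100 in T. longispinosus, 67, 93 and 68 in T. curvispinosus and 300, 347 and 470 in T. ambiguus, where edgeR's quasi-likelihood test called 325, 151, 1105, 0, 0 and 0 in the same order of species. At an unadjusted p under 0.05 the hosts had 1447, 1270 and 2683 contigs. With all 8 libraries 907 were called in T. americanus and 1747 in T. pilagens. Without 1 library, calls were 22 to 212 in T. americanus (22 without DR_438), 35 to 196 in T. duloticus, 248 to 823 in T. pilagens, 0 to 0 in T. longispinosus, 0 to 1 in T. curvispinosus and 0 to 5 in T. ambiguus, and immune contigs called were 0 to 1, 0 to 0 and 1 to 2 in the slavemakers and 0 to 0 in each host. The fits without 1 library also had fewer libraries, and the cause of these differences was not tested.

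No paired analysis was possible because pools of both states came from the same colonies but no label ties a pool to its colonies. Depth limits single libraries with few counts, such as 2 and 5 counts of antimicrobial peptides in DR_440. Contigs can be parts of 1 gene, and names come from matches in other ants.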
